A study of Mus musculus with 6 samples.

Results

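Semaphorins, plexins, neuropilins, Eph receptors and ephrins are the ligands and receptors through which growing axons and migrating neurons read contact and repulsion cues. Their transcripts were compared between the cerebellum of daDREAM transgenic mice and of wild-type mice. Members were chosen by gene symbol alone: every probe set annotated to exactly 1 symbol of these families was taken, and the brightest probe set of a gene, by its mean on all 6 arrays, stands for it. This gave 123 probe sets and 52 genes of the 18193 genes with a symbol in the table: 20 semaphorins, 2 neuropilins, 9 plexins, 13 Eph receptors and 8 ephrins. A probe set is a group of short oligonucleotides on the array that together report 1 transcript. Its brightness is not a measure of abundance, so levels are compared between arrays and not between genes.

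The study profiled dissected, frozen cerebellum on Affymetrix GeneChip Mouse Genome 430 2.0 arrays, with 3 daDREAM and 3 wild-type arrays that the design text calls independent biological replicates. DREAM, encoded by Kcnip3, is a calcium-sensing repressor of transcription that binds DNA at sites with a GTCA core and lets go when calcium rises. daDREAM is a mutant form that represses irrespective of calcium. The mice it was set against are labelled wild type. The sources used here do not give the promoter that drives the transgene, the number of lines, or the strain, age and sex of the mice. All values are log2 expression values as the authors deposited them, and a difference is daDREAM minus wild type on that scale.

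Marker lists were read on each array and set between the genotypes, not against each other. The 8 granule cell markers analysed averaged 10.49 to 10.70 on the daDREAM arrays and 10.55 to 10.62 on the wild-type arrays, and the 8 Purkinje cell markers 11.29 to 11.45 on the daDREAM arrays and 11.33 to 11.44 on the wild-type arrays. The 9 forebrain and brainstem markers averaged 4.78 to 4.89 on the daDREAM arrays and 4.88 to 4.95 on the wild-type arrays, with Ppp1r1b among them bright at 9.07 in daDREAM and 9.02 in wild type. Choroid plexus epithelium makes the cerebrospinal fluid. All 11 of its markers analysed had a positive difference, with a median of 0.43, and their mean level was 5.97 to 6.12 on the daDREAM arrays against 5.49 to 5.77 on the wild-type arrays. Of these, Aqp1, Kcne2, Slc4a5 and Calml4 were dim, with means below 5 in both genotypes. Kcne2 differed by 0.05, with daDREAM replicates 1 and 2 below all wild-type arrays and replicate 3 above all of them. Of 11 meningeal fibroblast markers, 10 had a positive difference, and their mean level was 6.56 to 6.64 in daDREAM against 6.43 to 6.44 in wild type. Their differences were uneven, from -0.03 for Lum to 0.58 for Igfbp2, with a median of 0.16. Igf2 followed Igfbp2 at 0.32, while Col1a2, Dcn and Aldh1a2 differed by 0.05, 0.04 and 0.01. Of 9 microglial markers, 8 had a positive difference, with a mean level of 6.11 to 6.20 in daDREAM against 5.94 to 6.03 in wild type. None of these markers passed the adjusted limma test. Their part in the results below was not tested. In whole tissue, fewer cells of a type and less RNA per cell cannot be told apart. The daDREAM arrays spread more than the wild-type arrays. Over all tested probe sets, arrays correlated (Pearson) at 0.973 to 0.990 with each other in daDREAM and at 0.989 to 0.997 in wild type, and daDREAM replicates 1 and 3 were the least alike.

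As background, semaphorins are secreted or membrane-bound proteins that mostly repel growth cones by way of plexins. Class 3 members are secreted and usually need a neuropilin beside the plexin, while classes 4 to 7 are bound to the membrane and bind plexins directly. Ephrins are held on the membrane, A-type by a lipid anchor and B-type by a transmembrane segment, and the Eph receptor tyrosine kinases that bind them signal at cell contact, with signals passing into both cells. In the cerebellum, Sema6a and its receptor Plxna2 govern the inward migration of granule cells, and Plxnb2 governs the proliferation and migration of their precursors. Sema3a acts on Plxna4 to strengthen climbing fibre synapses, and Sema7a acts on Plxnc1 to remove surplus ones.

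No guidance gene passed the test. With limma across all 45037 probe sets and Benjamini-Hochberg adjustment, 0 of the 52 genes had an adjusted p under 0.05, as did 0% of all genes, and every guidance gene had the same adjusted p of 0.998. At an unadjusted p under 0.05 there were 3 genes, 5.77% of the 52 beside 1.42% of all genes, and all 3 were higher in daDREAM (0.951% of all genes) and 0 lower (0.473% of all genes). These were Epha10, Sema3g and Plxnb3. Among the 123 guidance probe sets, 4 reached that threshold, beside 1.81% of all probe sets. The 3 daDREAM arrays lay wholly apart from the 3 wild-type arrays at 7 genes, 13.5% of the 52 beside 5.59% of all genes. Of these, 6 were higher in daDREAM (3.55% of all genes) and 1 was lower (2.04% of all genes).

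As a family the genes were balanced: 27 differences were above 0 and 25 below, or 51.9% above 0 beside 51.2% of all genes. Their median was 0.02 beside 0.01 over all genes. After each array was centred on its median, 24 were above 0, 27 below and 1 at 0, with a median of -0.01 beside -0.02 over all genes. The differences had a median size of 0.16 beside 0.10 over all genes, or beside 0.11 over genes with a mean of at least 5. The largest was 0.47. The median standard error of a guidance gene was 0.15. At the median gene the 95% interval extended 0.34 above and below the estimate, 1.26-fold each way. The adjusted test over all probe sets needs a larger difference than that.

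**Figure D1:**
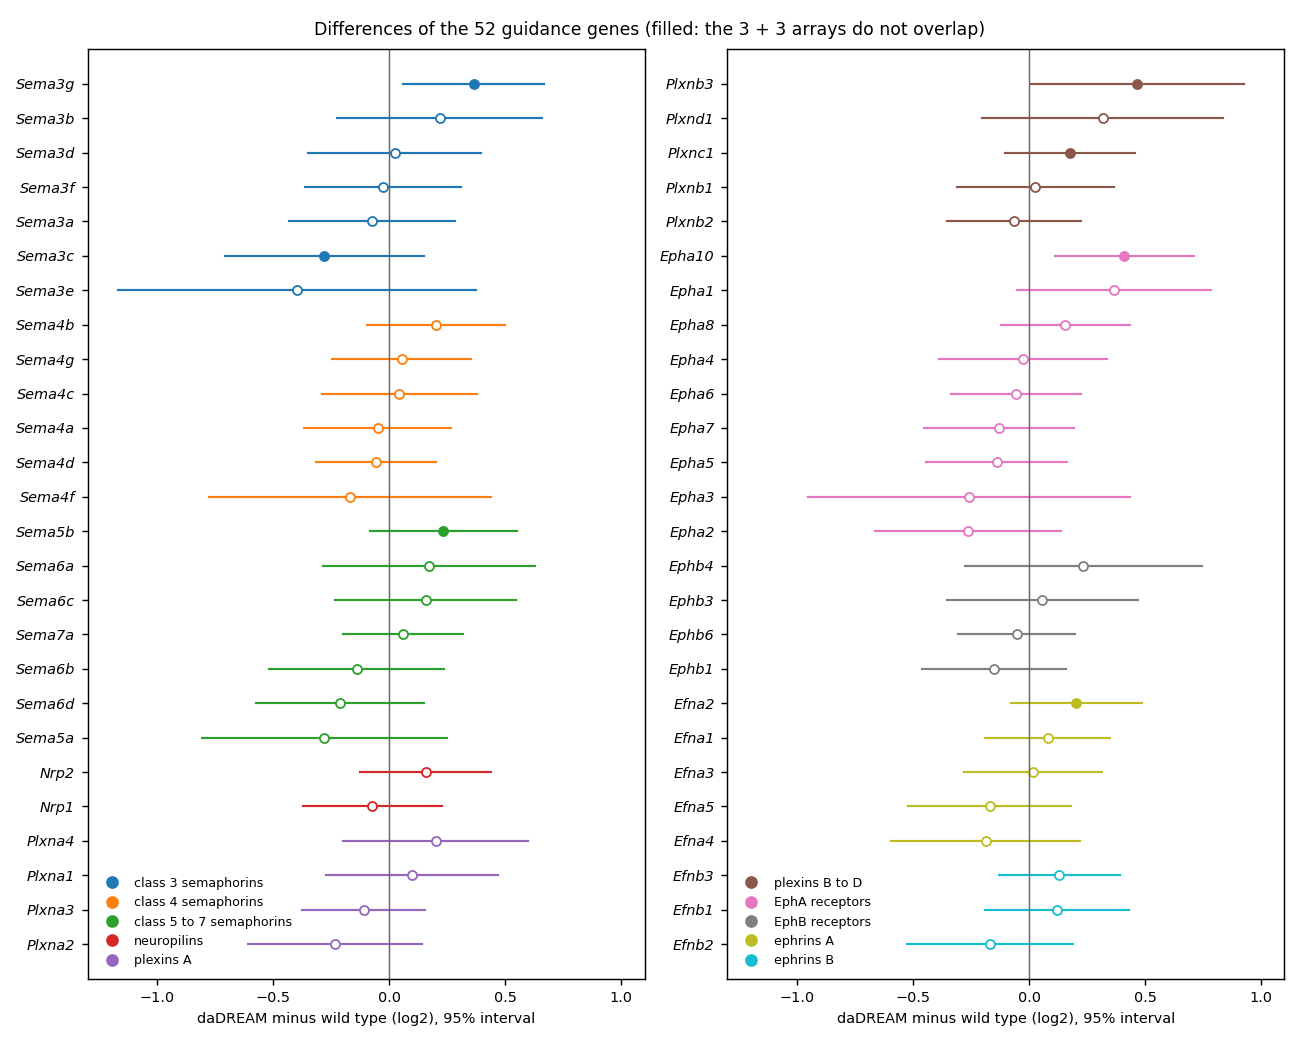
Difference of each of the 52 guidance genes, daDREAM minus wild type on the log2 scale (x axis), with 95% intervals from limma, ordered by class (colours) and size. Filled points mark the 7 genes whose 3 daDREAM and 3 wild-type arrays do not overlap, and 3 intervals, those of Epha10, Sema3g and Plxnb3, lie above 0.

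Because DREAM binds DNA at a GTCA core, the 250 bases before the start of the 3 genes with the smallest unadjusted p, and of the 1 gene lower in daDREAM without overlap, are shown here from RefSeq (GRCm38.p6), with GTCA and its reverse complement TGAC in capitals. The windows are chr4:124881535-124881784 on the plus strand for Epha10, chr14:31217623-31217872 on the plus strand for Sema3g, chrX:73756853-73757102 on the plus strand for Plxnb3 and chr5:17574566-17574815 on the plus strand for Sema3c.
Epha10: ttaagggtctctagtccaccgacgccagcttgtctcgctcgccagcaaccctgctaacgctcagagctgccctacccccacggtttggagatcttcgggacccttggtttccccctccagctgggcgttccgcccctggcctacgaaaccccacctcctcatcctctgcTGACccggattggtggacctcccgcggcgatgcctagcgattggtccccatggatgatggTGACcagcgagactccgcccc
Sema3g: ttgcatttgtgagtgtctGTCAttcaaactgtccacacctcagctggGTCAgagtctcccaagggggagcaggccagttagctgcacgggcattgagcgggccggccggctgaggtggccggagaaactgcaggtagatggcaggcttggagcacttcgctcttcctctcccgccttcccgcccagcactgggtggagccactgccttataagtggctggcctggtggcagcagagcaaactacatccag
Plxnb3: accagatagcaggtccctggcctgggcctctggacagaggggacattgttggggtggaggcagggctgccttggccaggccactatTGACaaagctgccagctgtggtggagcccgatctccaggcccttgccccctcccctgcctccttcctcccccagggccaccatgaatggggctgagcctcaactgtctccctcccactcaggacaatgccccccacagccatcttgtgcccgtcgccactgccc
Sema3c: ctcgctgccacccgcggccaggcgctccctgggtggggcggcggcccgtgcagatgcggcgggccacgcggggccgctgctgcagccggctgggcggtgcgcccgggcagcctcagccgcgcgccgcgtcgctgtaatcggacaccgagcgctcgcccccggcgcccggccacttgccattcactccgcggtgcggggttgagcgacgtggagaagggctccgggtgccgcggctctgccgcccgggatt
Epha10 held 2 cores, both as TGAC, Sema3g held 2 as GTCA, Plxnb3 held 1 as TGAC and Sema3c held none. Across 60 RefSeq promoter windows of 46 guidance genes, 39 held at least 1 core on either strand, 65%, beside 80.2% of all 32851 windows of this length. The guidance promoters were richer in G and C, with a median of 64.2% beside 52.4% over all windows. The core letters also lie in the CRE motif TGACGTCA, which 1 of the 60 windows and 1.55% of all windows held, and in the AP-1 motifs TGAGTCA and TGACTCA, which 2 of the 60 and 4.46% of all held. These matches describe the letters of the windows only. Sequence after the start of a gene was not searched, so a window without a core does not show that the gene lacks one.

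Among the secreted class 3 semaphorins, 3 of 7 differences were above 0 and 4 below, with a median of -0.03. Sema3g, a class 3 member known from blood vessels, stood at 5.32, 5.39 and 5.19 in daDREAM replicates 1 to 3, against 4.80, 4.89 and 5.12 in the wild-type replicates. Every daDREAM array was above every wild-type array, with the nearest 0.07 apart. The difference was 0.36, or 1.29-fold (95% interval 0.06 to 0.67, limma unadjusted p = 0.0242, adjusted p = 0.998). Sema3g had 1 probe set, so no other reading was at hand. Its mean over all arrays was 5.12, but its wild-type mean was 4.94. That lies below 5, where signal and background could not be told apart. Markers of endothelium, where Sema3g is also known to be made, had 3 of 8 differences above 0, a median of -0.06, and a mean level of 6.89 to 7.004 in daDREAM against 6.93 to 7.01 in wild type.

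Sema3c, known for its part in heart outflow and cortical axon guidance, was the 1 gene lower in daDREAM without overlap. It read 5.85, 5.84 and 5.19 in daDREAM, against 5.95, 5.88 and 5.89 in wild type. Replicate 3 alone lay far below, while the nearest daDREAM and wild-type arrays were 0.03 apart. The difference was -0.28 (interval -0.71 to 0.15), and without daDREAM replicate 3 it was -0.06.

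Sema3e, which binds Plxnd1 without a neuropilin, had the largest negative difference of the 52 genes. Its values were 7.02, 5.73 and 5.77 in daDREAM, against 6.74, 6.73 and 6.24 in wild type. Replicate 1 of daDREAM was the highest of the 6 arrays and the other daDREAM arrays were the lowest, so the genotypes overlapped. The difference was -0.40 with a wide interval from -1.17 to 0.37. Its next brightest probe sets, with means above 5, differed by -0.09 and -0.01, and the dimmest by 0.20. Without daDREAM replicate 1 the difference of the brightest probe set was -0.82.

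Sema3a, the classic collapsing factor of growth cones, read 6.75, 6.38 and 6.83 in daDREAM, against 6.69, 6.89 and 6.60 in wild type. Replicate 2 of daDREAM lay below all wild-type arrays and replicates 1 and 3 lay within their range. The difference was -0.07 (interval -0.43 to 0.28). Its dimmer probe sets, with means of 4.24 and 3.44, had the opposite sign, with differences of 0.27 and 0.04. Sema3f, which acts through Nrp2, read 8.43, 8.72 and 8.81 in daDREAM, against 8.67, 8.53 and 8.84 in wild type, a difference of -0.03. Sema3b and Sema3d, both dim with means below 5, differed by 0.22 and 0.02.

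Class 4 semaphorins, membrane proteins that act mostly through plexins B, had 3 of 6 differences on each side of 0. Sema4g, a ligand of Plxnb2 in the developing cerebellum, read 9.15, 9.04 and 8.92 in daDREAM, against 9.10, 9.03 and 8.82 in wild type. The arrays interleaved, and the difference was 0.05 (interval -0.24 to 0.35). Sema4b read 7.02, 7.23 and 7.34 in daDREAM, against 7.01, 6.90 and 7.07 in wild type, a difference of 0.20 (interval -0.09 to 0.50). Here daDREAM replicate 1 fell inside the wild-type range while the other daDREAM arrays lay above it. Sema4c, the other ligand of Plxnb2, differed by 0.04, Sema4d, the ligand of Plxnb1, by -0.06, and Sema4a by -0.05. Sema4f ranged within daDREAM from 7.61 in replicate 3 to 8.74 in replicate 1, on either side of the wild-type range of 8.13 to 8.51, so its difference of -0.17 averages opposite deviations.

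The remaining semaphorins, classes 5 to 7, had 4 of 7 differences above 0 and a median of 0.06. Sema7a, the lipid-anchored member that acts on climbing fibres, read 9.72, 9.67 and 9.65 in daDREAM, against 9.72, 9.60 and 9.54 in wild type. Its daDREAM arrays spanned 0.07, the least of the 52 genes. The genotypes overlapped, with a difference of 0.06 (interval -0.20 to 0.32), and its other probe set differed by -0.01. Sema6d, a membrane ligand of plexins A, read 10.07, 9.69 and 9.52 in daDREAM, against 9.95, 10.04 and 9.93 in wild type. Replicate 1 of daDREAM lay above all wild-type arrays and the other daDREAM arrays below all of them. The difference was -0.21 (interval -0.57 to 0.15). Its next brightest probe set read 6.53, 6.33 and 6.97 in daDREAM, against 6.54, 6.59 and 6.72 in wild type, a difference of -0.01. On that probe set daDREAM replicates 1 and 2 lay below all wild-type arrays and replicate 3 above all of them.

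Sema5a, a membrane protein with thrombospondin repeats that both attracts and repels axons, behaved like the brightest Sema6d probe set. It read 7.84, 7.08 and 6.90 in daDREAM, against 7.47, 7.57 and 7.62 in wild type, with daDREAM replicate 1 above and replicates 2 and 3 below every wild-type array. The difference was -0.28 (interval -0.81 to 0.25), and its next probe set differed by -0.19. Sema5b, dim at a mean of 4.87, did not overlap: 4.84, 4.90 and 5.22 in daDREAM, against 4.73, 4.70 and 4.83 in wild type. The gap between the nearest arrays was 0.01 and the difference 0.23 (interval -0.08 to 0.55). Its second probe set differed by 0.23.

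Sema6a, the ligand of Plxna2 on migrating granule cells, gave different readings from its probe sets. The brightest read 6.36, 6.80 and 7.07 in daDREAM, against 6.54, 6.38 and 6.80 in wild type, a difference of 0.17 (interval -0.29 to 0.63). The next read 6.95, 6.65 and 6.11 in daDREAM, against 6.61, 6.58 and 6.53 in wild type, a difference of -0.00. The daDREAM arrays thus stood in opposite order on these probe sets of the same gene: replicate 1 was lowest on the brightest and highest on the next. The remaining probe set differed by 0.13. Sema6c differed by 0.16 and Sema6b by -0.14, with overlapping arrays.

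Neuropilins, the co-receptors of class 3 semaphorins, did not separate by genotype. Nrp1, which pairs with plexins A to receive Sema3a, read 5.37, 5.22 and 5.16 in daDREAM, against 5.32, 5.17 and 5.48 in wild type, a difference of -0.07 (interval -0.37 to 0.23). All 4 Nrp1 probe sets had negative differences of -0.14 to -0.03, but only the brightest had a mean above 5. Nrp2, the Sema3f co-receptor, read 5.97, 5.99 and 6.17 in daDREAM, against 5.97, 5.77 and 5.92 in wild type, a difference of 0.16 (interval -0.12 to 0.44). Its lowest daDREAM array equalled its highest wild-type array. The other Nrp2 probe sets with means above 5 both differed by -0.19.

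Plexins A, the receptors shared by class 3 and class 6 semaphorins, had 2 differences on each side of 0 and a median of -0.005. Plxna2, the granule cell receptor of Sema6a, read 7.93, 7.38 and 7.87 in daDREAM, against 7.95, 8.03 and 7.90 in wild type. Replicates 2 and 3 of daDREAM were below all wild-type arrays and replicate 1 was not. The difference was -0.23 (interval -0.61 to 0.14), its other 3 probe sets differed by -0.10 to -0.05, and without daDREAM replicate 2 the difference was -0.06. Plxna4, the climbing fibre receptor of Sema3a, read 6.64, 6.90 and 7.30 in daDREAM, against 6.77, 6.81 and 6.66 in wild type. Its difference of 0.20 (interval -0.20 to 0.60) rested on daDREAM replicate 3, without which it was 0.02, and its other probe set differed by -0.30. Plxna1 differed by 0.10 and Plxna3 by -0.11.

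Plexins B to D had the highest class median, 0.18, with 4 of 5 differences above 0. Plxnb3, a plexin of oligodendrocytes that binds Sema5a, read 7.86, 8.13 and 8.66 in daDREAM, against 7.76, 7.64 and 7.85 in wild type. All daDREAM arrays lay above all wild-type arrays, although the nearest were only 0.01 apart and daDREAM replicate 3 was far above the rest. The difference was 0.47, or 1.38-fold (interval 0.01 to 0.93, limma unadjusted p = 0.0476, adjusted p = 0.998), the largest of the 52 genes. The other Plxnb3 probe set differed by 0.20 (interval -0.10 to 0.51), with overlapping arrays. Without daDREAM replicate 3 the difference was 0.25. Oligodendrocyte markers had 2 of 8 differences above 0, a median of -0.03, and a mean level of 8.84 to 9.23 in daDREAM against 8.99 to 9.20 in wild type.

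Plxnc1, the receptor of Sema7a, read 7.66, 7.40 and 7.43 in daDREAM, against 7.35, 7.35 and 7.26 in wild type. The arrays did not overlap, the nearest lay 0.05 apart, and the difference was 0.18 (interval -0.10 to 0.46). Without daDREAM replicate 1 it was 0.095. Of its 6 probe sets, 5 had positive differences. Besides the brightest, only 1 had a mean above 5, with a difference of 0.08 and overlapping arrays. The rest were dim, with means of 3.51 to 3.94. Plxnb2, the granule precursor receptor, read 8.94, 8.73 and 8.75 in daDREAM, against 8.89, 8.98 and 8.74 in wild type. Its arrays overlapped, with a difference of -0.06 and an interval from -0.35 to 0.23. Plxnd1, a plexin of blood vessels, differed by 0.32 with overlapping arrays, and Plxnb1 by 0.03.

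Of the EphA receptors, 3 of 9 differences were above 0 and 6 below, with a median of -0.06. Epha10, a family member that lacks kinase activity, had the smallest unadjusted p of the 52 genes. It read 6.62, 6.82 and 6.89 in daDREAM, against 6.51, 6.30 and 6.29 in wild type. Every daDREAM array exceeded every wild-type array, with the nearest 0.11 apart. The difference was 0.41, or 1.33-fold (interval 0.11 to 0.71, limma unadjusted p = 0.0133, adjusted p = 0.998). It had 1 probe set, so no second reading was at hand, and its difference stayed between 0.35 and 0.49 when any 1 array was left out.

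Epha4, the receptor that binds both types of ephrin, read 5.38, 5.58 and 5.90 in daDREAM, against 5.62, 5.54 and 5.78 in wild type. The wild-type range lay inside the daDREAM range, and the difference was -0.03 (interval -0.39 to 0.34). Epha8, a receptor of ephrins A, read 7.53, 7.53 and 7.33 in daDREAM, against 7.41, 7.24 and 7.27 in wild type, a difference of 0.16 (interval -0.12 to 0.44). Its daDREAM replicate 3 fell inside the wild-type range. Epha1, dim at a mean of 4.94, differed by 0.37 with overlapping arrays, while the remaining Epha1 readings were 0.06 and -0.08. Epha2, Epha3, Epha5, Epha6 and Epha7 had differences from -0.26 to -0.06. A dim Epha3 probe set with a mean of 4.19 was the 1 further guidance probe set at an unadjusted p under 0.05, with a difference of -0.60, and its arrays overlapped. The 2 brighter Epha3 probe sets differed by -0.26 and -0.21.

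The EphB receptors, which bind ephrins B, were split evenly, with a median of 0.00. Ephb1 read 7.37, 7.29 and 7.18 in daDREAM, against 7.50, 7.57 and 7.22 in wild type, a difference of -0.15 (interval -0.46 to 0.16), with overlap. Ephb4, a receptor of vein endothelium, differed by 0.23, and this came from daDREAM replicate 2 at 6.27, against a range of 5.34 to 5.66 on the other 5 arrays. Ephb3 and the kinase-dead Ephb6 differed by 0.06 and -0.05.

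Among the ephrins A, 3 of 5 differences were above 0. Efna2 read 5.85, 5.75 and 5.85 in daDREAM, against 5.71, 5.68 and 5.45 in wild type. The arrays did not overlap and the nearest were 0.04 apart. The difference was 0.20 (interval -0.08 to 0.49), its dimmer probe set differed by 0.17, and without wild-type replicate 3 the difference was 0.12. Efna5, a repellent in topographic maps, read 6.56, 7.01 and 6.72 in daDREAM, against 7.08, 6.79 and 6.93 in wild type. It overlapped, with a difference of -0.17 (interval -0.52 to 0.18), and its dimmer probe set differed by 0.20. Efna1, Efna3 and Efna4 differed by 0.08, 0.02 and -0.19.

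Ephrins B had a median of 0.12. Efnb3, a midline repellent for axons that carry Epha4, read 7.91, 8.06 and 8.09 in daDREAM, against 7.88, 7.91 and 7.88 in wild type. No daDREAM array lay below a wild-type array, but replicate 1 tied with the highest of them, and the difference was 0.13 (interval -0.13 to 0.39). Efnb1, which like the other ephrins B can signal back into its own cell, had readings of 0.11 to 0.14 from 3 probe sets. Efnb2, the partner of Ephb4 in vessels, differed by -0.17, and its 4 probe sets ranged from -0.17 to 0.17.

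**Figure D2:**
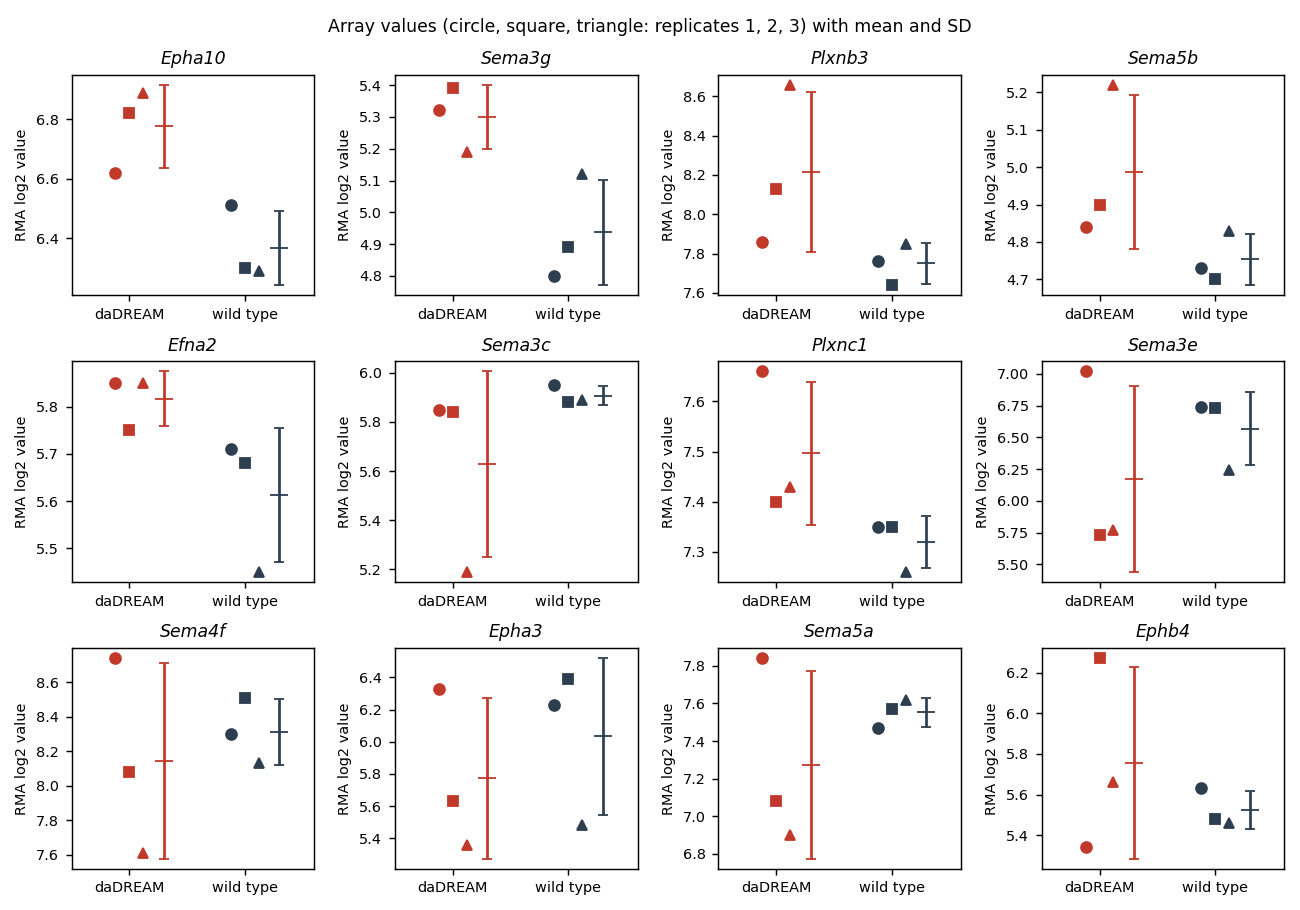
RMA log2 value (y axis, a separate scale in each panel) on each array, daDREAM left and wild type right, with circle, square and triangle for replicates 1, 2 and 3 and bars for mean and SD (n = 3 each). The first 7 panels are the genes without overlap between genotypes, and the last 5 are the genes with the widest daDREAM range, led by Sema3e with a range of 1.29.

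The spread of the guidance genes was larger in daDREAM than in wild type, as it was for genes at large. The SD within daDREAM exceeded that within wild type at 37 of 52 genes, 71.2% beside 71.4% of all genes, and its median was 0.20 in daDREAM against 0.12 in wild type. The 3 daDREAM arrays spanned at least 0.5 log2 units at 16 genes, 30.8% beside 36.8% of all genes, against 6 genes for the wild-type arrays, 11.5% beside 12.3% of all genes. At 15 genes, 28.8% beside 38.5% of all genes, 1 daDREAM array lay above all wild-type arrays while another lay below all of them. In Efna3, Ephb6, Sema3e, Sema4f, Sema5a and Sema6d, replicate 1 was on the high side. In Efnb1, Epha4, Ephb3, Ephb4, Plxna4, Plxnb1, Sema3b, Sema6a and Sema6c, it was on the low side.

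Technical readings differed between the same arrays. Known amounts of bacterial RNA are spiked into each hybridization, and the mean of the 18 probe sets that read it was 9.47, 10.14 and 10.47 on daDREAM replicates 1 to 3, against 8.99, 8.99 and 9.48 on the wild-type arrays. The 3' minus 5' signal of beta-actin, a measure of RNA integrity, was 0.96, 0.58 and 0.63 on the daDREAM arrays, against 0.79, 0.79 and 0.78 on the wild-type arrays. So daDREAM replicate 1 was the daDREAM array nearest wild type on the controls and the highest of all on the actin measure. The same reading of Gapdh was 0.25, 0.01 and 0.08 on the daDREAM arrays, against 0.25, 0.29 and 0.12 on the wild-type arrays, where daDREAM replicate 1 lay within the wild-type range. The part of these readings in the differences was not tested.

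Of the 25 genes given in full, 21 had a difference that moved by over 1.5 times when some 1 array was left out, and the exceptions were Epha10, Sema3g, Epha8 and Efnb3. Leaving out daDREAM replicate 1, 1 of the alternatives listed, moved the counts most. Without it, 13 of 52 guidance genes reached an unadjusted p under 0.05, 25% beside 16.5% of all genes, and the genotypes did not overlap at 24, 46.2% beside 34.0% of all genes. Of the 13, 9 were higher in daDREAM and 4 lower. The shares of all genes by direction in this run are not given, so the split is not read as a trait of the guidance genes. Both directions held semaphorins. The lower ones were Sema3e at -0.82 (interval -1.21 to -0.43), Sema5a at -0.56 (interval -0.85 to -0.28), Sema6d at -0.37 and Sema4f at -0.47. The higher ones were the semaphorins Sema3b at 0.41, Sema3g at 0.35, Sema6c at 0.32 and Sema4b at 0.29, and the receptors Plxnb3 at 0.65, Epha1 at 0.53, Epha10 at 0.49, Ephb4 at 0.44 and Plxna4 at 0.35. Without daDREAM replicate 2 there was 1 such gene (0.588% of all genes), and without wild-type replicate 2 there were 0 (0.561% of all genes). None of the 13 passed after adjustment, the smallest limma adjusted p among guidance genes being 0.215. These values set 2 daDREAM arrays against 3 wild-type arrays and are those of the brightest probe sets. The run was singled out because it moved the counts most, so its intervals and p-values give no independent support.

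**Figure D3:**
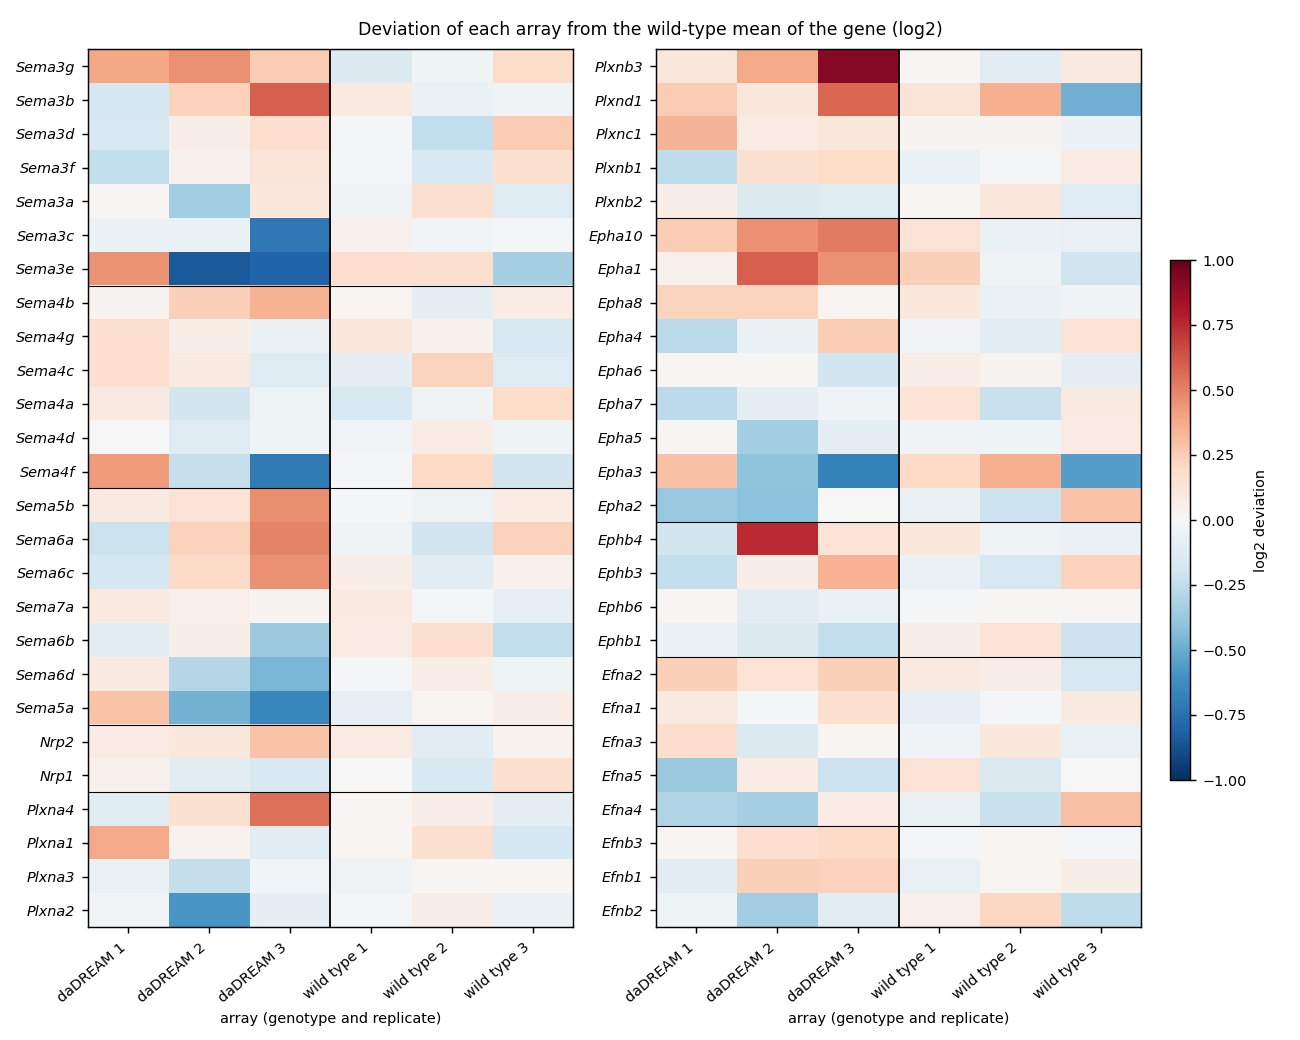
Deviation of each array from the wild-type mean of the same gene (colour, log2) for the 52 guidance genes in rows and the 6 arrays in columns, with the daDREAM arrays left of the line. Sema3e, Sema5a and Sema6d are above the wild-type mean on daDREAM replicate 1 and below it on replicates 2 and 3, while Plxnb3 is above it on all 3.

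Ligands and their receptors were also set side by side, over 19 textbook pairs that share some members. Both differences had the same sign in 5 pairs, 2 with both above 0 and 3 with both below. In the granule cell pair, Sema6a differed by 0.17 and Plxna2 by -0.23. In the climbing fibre pairs, Sema3a differed by -0.07 and Plxna4 by 0.20, and Sema7a by 0.06 and Plxnc1 by 0.18. The widest contrast was that of Sema5a at -0.28 with Plxnb3 at 0.47, followed by Sema3e at -0.40 with Plxnd1 at 0.32. Among ephrin pairs, Efna5 at -0.17 stood beside Epha5 at -0.14 and Epha7 at -0.13, and Efnb3 at 0.13 beside Epha4 at -0.03. No member of any pair passed the adjusted test.

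**Figure D4:**
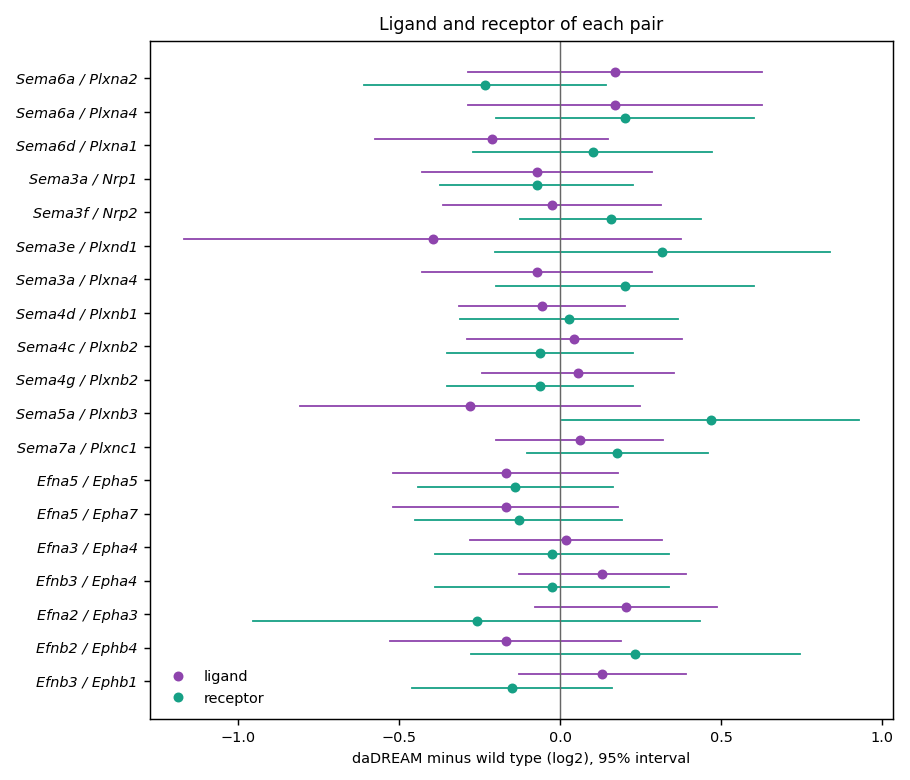
Difference of ligand (purple) and receptor (green) in each of 19 pairs, daDREAM minus wild type on the log2 scale (x axis), with 95% intervals from limma. Of the intervals, that of Plxnb3 is the 1 that lies above 0, and the ligand and the receptor have the same sign in 5 pairs.

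Probe sets of the same gene often disagreed. Of the 52 genes, 36 had more than 1 probe set, with 71 probe sets beside the brightest. Of these 71, 43 had the sign of the brightest, as did 18 of the 28 whose mean reached 5. In 14 of the 36 genes all probe sets had the same sign, Plxna2, Plxnb3, Nrp1, Sema5b and Efnb1 among them. For Nrp1 and Sema5b, no probe set beside the brightest had a mean that reached 5. Plxna4, Nrp2, Sema4d, Sema6a and Sema7a were among those with another probe set of mean above 5 and of opposite sign. The deposited values carry no detection call, and 9 of the 52 genes had means below 5, where signal and background could not be told apart.

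**Figure D5:**
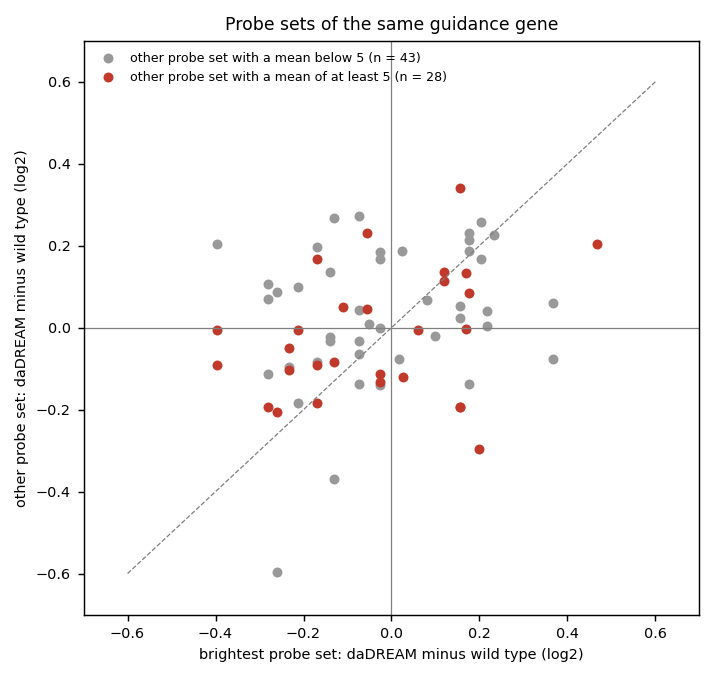
Difference of the brightest probe set of a guidance gene (x axis) against that of each of its other 71 probe sets (y axis), daDREAM minus wild type on the log2 scale, with red for those whose mean reached 5 and grey for dimmer ones. Of the 71 points, 43 share the sign of the brightest probe set, and the dashed line marks equal differences.

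Genes that carry the signals inward were measured as lists. Of 29 partners of semaphorin signalling, 21 had differences above 0 and 8 below, with a median of 0.05, and 0 passed the adjusted limma test. Arhgef12, a RhoA activator that binds plexins B, read 9.62, 9.50 and 9.37 in daDREAM, against 9.88, 9.89 and 9.69 in wild type, a difference of -0.32 (interval -0.61 to -0.03). It was the 1 partner at an unadjusted p under 0.05, 3.45% of the list beside 1.42% of all genes. Its arrays did not overlap, which held for 3 partners, 10.3% beside 5.59% of all genes. Rnd1, a small GTPase that binds plexins, read 6.21, 6.22 and 6.32 in daDREAM, against 6.04, 6.04 and 6.03 in wild type, a difference of 0.21 (interval -0.04 to 0.46), also without overlap. The kinase Gsk3b, the remaining partner without overlap, differed by 0.20.

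Of 28 partners of Eph and ephrin signalling, 8 had differences above 0, 19 below and 1 at 0, with a median of -0.04, and 0 passed. Itsn1, an exchange factor for Cdc42 that works with EphB receptors, differed by 0.30 (interval -0.01 to 0.61), and Tiam2, an activator of Rac, by -0.27 (interval -0.64 to 0.10). In the neighbouring netrin, slit and repulsive guidance families, 11 of 22 genes had differences on each side of 0, with a median of -0.00, and 0 passed. The slit receptor Robo1, dim at about 4, differed by 0.19 (interval -0.14 to 0.51). The netrin receptor Unc5c, a granule cell migration gene, read 8.55, 8.57 and 8.42 in daDREAM, against 8.67, 8.64 and 8.74 in wild type, without overlap and with a difference of -0.17 (interval -0.43 to 0.09).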

How the data were processed

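The authors deposited a log2 expression value for every probe set on every array. RMA and the affy package are named in the submitters' processing notes, without versions. RMA corrects background, equalises probe distributions across arrays and summarises probe sets. The deposited probe set values still differed in spread, with an interquartile range of 3.49, 3.15 and 2.97 on daDREAM replicates 1 to 3. On wild-type replicates 1 to 3 it was 3.27, 3.38 and 3.10. The part of this in the differences was not tested. A change common to most genes would be scaled away, and differences of dim probe sets come out too small. Scanner files were not used.

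Genotype and replicate number came from the sample titles. The 64 control probe sets were left out. The other 45037 were tested 2-sided with limma 3.58.1 (R 4.3.3, lmFit and eBayes), with Benjamini-Hochberg adjustment over all of them at 0.05. Of these, 34945 have 1 gene symbol. All 52 guidance genes matched the RefSeq table by entrez identifier. The members, gene lists, pairs, tests and alternatives were chosen with earlier results of these data known. The genes given in full were the brightest of each of 10 classes, the 6 higher and 6 lower by smallest p with a mean of at least 5, and those with known cerebellar roles (1 such receptor is not analysed here). Genes without overlap, those in the text on spread and the extra probe sets were chosen after their values were seen. From each partner list the member with the smallest p in each direction is given.

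The fit was tested on simulated data with known changes in 200 probe sets. At an adjusted p under 0.05 it called 0% of changes of 0.5 log2 units and 84.5% of changes of 1. The simulated noise was equal in both genotypes, unlike that of these arrays. The number of arrays limits the precision. Replicate numbers did not pair the arrays: same-numbered arrays had deviations correlated at 0.12, -0.28 and 0.32 across probe sets.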

Additional observations from a re-analysis of the deposited data

How the results depend on the processing

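The count of guidance genes past the adjusted test was 0 under all 13 alternatives that gave one. That of all probe sets was 0 too, also with 1 probe set per gene. With only probe sets of mean at least 5 in the fit, 2 of 43 guidance genes had an unadjusted p under 0.05, beside 1.47% of all such genes. With the replicate number as a block, 3 guidance genes had an unadjusted p under 0.05, as without it (2.08% of all genes), and no call changed. The design text names no pairing by these numbers, and daDREAM replicate 1 correlated best with wild-type replicate 2. When 1 array was left out, guidance genes at an unadjusted p under 0.05 numbered 0 to 13 (0 without wild-type replicate 2, 1 without daDREAM replicate 2, 13 without daDREAM replicate 1), and those without overlap 9 to 24, beside 8.93% to 34.0% of all genes. The median of all guidance genes was -0.012 to 0.017 in these runs and -0.0067 after median centring. Class medians ran from -0.098 to 0.085 for class 3 semaphorins, -0.053 to 0.10 for class 4, 0.0067 to 0.11 for classes 5 to 7, -0.085 to 0.043 for plexins A, 0.075 to 0.23 for plexins B to D, -0.067 to 0.061 for EphB receptors and -0.063 to 0.097 for ephrins A. With the mean of all probe sets of a gene, the median was 0.081 for class 3 semaphorins and -0.060 for neuropilins. Without probe sets of mean below 5 it was -0.04 for class 5 to 7 semaphorins and 0.057 for EphB receptors. Without _s_at, _x_at and _a_at probe sets it was -0.10 for class 3, -0.0033 for classes 5 to 7 and -0.053 for EphB.

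Of 25 genes given in full, 16 kept their sign under every alternative, Epha10, Plxnb3, Sema3g, Plxnc1 and Sema3e among them. With the mean of the probe sets the sign turned for Efna5 (0.013), Epha4 (0.037), Nrp2 (-0.044), Plxna4 (-0.048) and Sema3a (0.081). It turned for Sema6a (-0.0033) without _s_at, _x_at and _a_at probe sets and for Sema3f (0.024) after repeated quantile normalization. Without 1 array, the range crossed 0 for Epha4 (-0.17 to 0.093), Sema3a (-0.16 to 0.063), Sema3f (-0.105 to 0.085), Nrp1 (-0.15 to 0.005) and Sema4g (-0.028 to 0.11). The cause was not tested.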
